A study of Mus musculus with 44 samples.

Results

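Slc16a13 and 8 genes that lie beside it on mouse chromosome 11 were examined, 9 of the 38202 genes in the deposited tables. The members were chosen by their place around the deleted locus, and the list was drawn up with the results of the genotype comparison already known, those of Slc16a13 and Slc16a11 among them. Differences between KO and WT mice are therefore given for the members as values with intervals and without a test. RNA-Seq was performed on poly(A) RNA of liver and skeletal muscle from 11 WT and 11 KO mice, so that 44 libraries were available. All animals were male C57BL/6N littermates, 20 weeks old, which had received HFD for 15 weeks and were fasted overnight before tissue was taken. KO mice carried a constitutive CRISPR/Cas9 deletion of the Slc16a13 promoter and exons 1 to 3 in every cell, and both tissues of an animal were sequenced from bulk tissue. No untreated or chow-fed group was part of the 44 libraries.

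SLC16A13 and SLC16A11 (also MCT13 and MCT11) are plasma membrane proteins of the monocarboxylate transporter family, whose members carry lactate, pyruvate and related acids together with protons. Their genes are neighbours in the mouse and human genomes, and the human locus is associated with type 2 diabetes. The genes around them serve unrelated functions. ASGR1 and ASGR2 form the asialoglycoprotein receptor of hepatocytes, CLEC10A and MGL2 are galactose-type lectins of macrophages and dendritic cells, BCL6B is a transcriptional repressor found in endothelial cells, RNASEK is a small membrane protein associated with the vacuolar proton pump, and ALOX12 is the 12-lipoxygenase of platelets.

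In the gene order of chromosome 11 the members run from Asgr1 through Asgr2, Mgl2, Clec10a, Slc16a11, Slc16a13 and Bcl6b to Rnasek and Alox12. The first 5 are read from the plus strand and the last 4 from the minus strand. Slc16a11 and Slc16a13 thus point at each other with their 3′ ends, and Bcl6b lies on the side of the deleted promoter. A protein-coding gene that is no member, 0610010K14Rik, lies between Bcl6b and Rnasek. One of the 4 annotated Slc16a13 transcripts holds exon 4, which has 1133 bases or 44.8 percent of that transcript's 2531 bases. Exon 4 was not part of the deletion, so that reads on it are counted for Slc16a13 in KO mice as well.

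The sequence upstream of a start site was at hand in RefSeq (GRCm38.p6) for 5 of the 9 members, namely Asgr1, Asgr2, Mgl2, Slc16a11 and Alox12. Both strands were searched for 4 motifs that bind general transcription factors, none of which contains another. The letters TATAAA, the core of the element placed just before many start sites, occur in 12.4 percent of all 32851 RefSeq stretches of this length. The letters CCAAT, bound by NF-Y, occur in 33.8 percent. A GC box, bound by SP1 and searched for as GGGCGG, occurs in 32.7 percent. An E-box, bound by USF proteins and searched for as CACGTG, occurs in 6.02 percent. Below, the 250 bases before the start of Slc16a11 (chr11:70213660-70213909, plus strand) are shown because it lies next to Slc16a13 and was the member with the largest difference between genotypes in muscle. Those before a start of Asgr1 (chr11:70054105-70054354, plus strand) are shown beside them because Asgr1 was the member with the highest level in liver. Capitals mark a match to a motif. The stretch of Slc16a11 holds 1 match to the NF-Y motif, on the opposite strand, and the stretch of Asgr1 shown holds none of the 4 motifs. Before the other RefSeq start of Asgr1 (chr11:70053874-70054123, plus strand) there is 1 match to the NF-Y motif, also on the opposite strand.
Slc16a11: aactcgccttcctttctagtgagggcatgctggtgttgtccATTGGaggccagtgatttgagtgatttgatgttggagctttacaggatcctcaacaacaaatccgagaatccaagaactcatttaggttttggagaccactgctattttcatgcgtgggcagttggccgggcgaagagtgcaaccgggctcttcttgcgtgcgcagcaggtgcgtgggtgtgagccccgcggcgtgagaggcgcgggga
Asgr1: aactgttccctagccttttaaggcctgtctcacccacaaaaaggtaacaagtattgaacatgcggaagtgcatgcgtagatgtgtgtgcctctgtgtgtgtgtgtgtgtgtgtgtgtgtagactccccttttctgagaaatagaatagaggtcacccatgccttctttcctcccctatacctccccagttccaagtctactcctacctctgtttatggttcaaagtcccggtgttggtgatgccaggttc

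Library totals ranged from 20150712 to 35218243 counted reads. In 5 of the 11 KO livers the slope of log2 CPM (counts scaled to library size) on log2 gene length was lower than in any WT liver. A lower slope means fewer reads on long genes and more on short genes. The slope lay between -0.535 and 0.0378 in these 5, between 0.0394 and 0.0955 in WT livers, and between 0.0722 and 0.108 in the other 6 KO livers. The cut was the lowest WT value, and 1 of the 5, mouse 587 at 0.0378, lay only just below it. The liver differences of the members are given with and without these 5 libraries. The labelled tissue was checked against marker genes. The summed level of 10 hepatocyte markers was at least 83370 CPM in every liver and at most 9.65 CPM in every muscle, and that of 8 myofibre markers was at least 130700 CPM in every muscle and at most 61.1 CPM in every liver. In bulk tissue, fewer cells of a type and less RNA per cell cannot be told apart.

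In WT mice the members fell into 3 groups: 4 genes with more RNA in liver than in muscle, 4 genes with more in muscle, and Rnasek, which was abundant in both. Bcl6b and Rnasek were above the level asked for by the filter on low counts (0.398 CPM) in all 11 libraries of both tissues. Both passed the test between WT liver and WT muscle (quasi-likelihood test of edgeR, adjusted after Benjamini and Hochberg), as did 91 percent of all 13907 genes tested. The other 7 were below that level in at least 3 libraries of 1 tissue and entered the fit through the other tissue, so that their differences are given as values without a test. RPKM values, which are scaled to gene length, were used to compare genes with each other. In liver, mean RPKM was 508 ± 26.8 for Asgr1, 167 ± 12.8 for Asgr2, 83.5 ± 7.64 for Rnasek, 8.34 ± 1.43 for Slc16a11 and 2.72 ± 0.933 for Slc16a13 (SD, n = 11). Bcl6b (1.03 ± 0.311), Clec10a (0.640 ± 0.315), Alox12 (0.135 ± 0.049) and Mgl2 (0.095 ± 0.063) followed. The ranges of Slc16a13 and Bcl6b, of Bcl6b and Clec10a, and of Alox12 and Mgl2 overlapped, and those of the other neighbours in this order did not. In muscle the order began with Rnasek at 71.4 ± 3.22 RPKM, followed by Clec10a (3.80 ± 1.37), Mgl2 (2.13 ± 0.558) and Bcl6b (1.57 ± 0.694). Alox12 (0.387 ± 0.203), Slc16a13 (0.261 ± 0.106), Slc16a11 (0.222 ± 0.139), Asgr2 (0.081 ± 0.058) and Asgr1 (0.006 ± 0.021) came last. Only Rnasek and Clec10a, and Bcl6b and Alox12, were separated from their next gene by ranges that did not overlap.

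**Figure D1:**
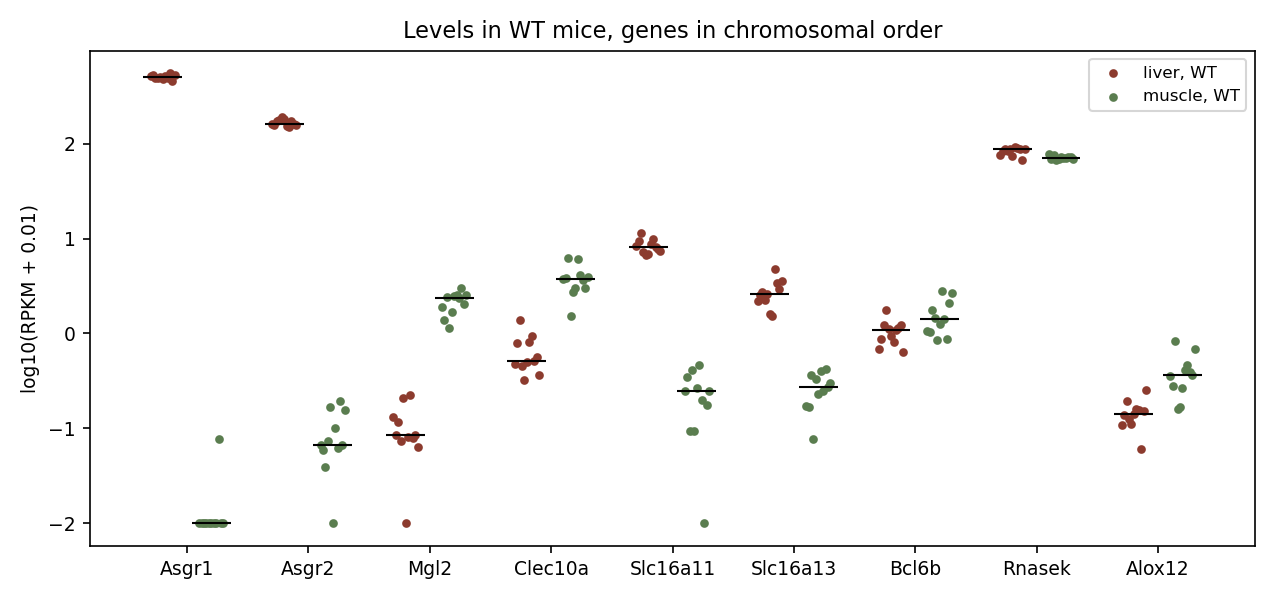
RPKM of the 9 members in 11 WT livers and 11 WT muscles, as log10(RPKM + 0.01) with genes in chromosomal order; points are libraries and lines are medians. Asgr1, Asgr2, Slc16a11 and Slc16a13 lie higher in liver, Mgl2 and Clec10a lie higher in muscle, and the ranges of Alox12, Rnasek and Bcl6b overlap between tissues. A value of -2 is an RPKM of 0.

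The 2 transporter genes belonged to the liver group. Slc16a11 was higher in WT liver than in WT muscle by 5.65 on the log2 scale (SE 0.19), and its liver level was above its muscle level in 11 of 11 mice. Slc16a13 was higher by 3.83 (SE 0.20), also in 11 of 11 mice. The receptor genes had the widest margin. Over the 11 WT livers 164932 reads were counted on Asgr1, against 2 reads over the 11 WT muscles, a ratio of 86920 after scaling to library totals (95% exact counting interval 24060 to 717700). Both muscle reads were in 1 library, that of mouse 616, without which the sum is 0. For Asgr2 these sums were 52166 and 21 reads, a ratio of 2618 (1713 to 4230). Intervals of this kind cover counting error only.

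The lectin genes had the largest differences of the muscle group. For Mgl2 the log2 difference of liver minus muscle was -4.62 (SE 0.25), with muscle above liver in 11 of 11 mice. For Clec10a it was -3.24 (SE 0.20), likewise in 11 of 11 mice. The summed level of 10 general macrophage markers went the other way, with 351 to 455 CPM in WT liver and 57.8 to 163 CPM in WT muscle. The 5 Kupffer cell markers summed to 237 to 315 CPM in WT liver and to at most 0.942 CPM in WT muscle, where Clec4f was at 0. Clec10a and Mgl2 are paralogues, and 121 of the stretches of 85 bases, the read length, occur in transcripts of both genes. That is 3.57 percent of those of Clec10a and 5.32 percent of those of Mgl2, and reads from them could be placed with either gene. For Alox12 the difference was -1.41 (SE 0.26), with muscle above liver in 11 of 11 mice, and the 6 platelet markers summed to 2.34 to 3.91 CPM in WT liver and 5.83 to 8.66 CPM in WT muscle.

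Bcl6b and Rnasek differed little between the tissues. For Bcl6b the log2 difference of liver minus muscle was -0.55 (SE 0.20, adjusted p = 0.013), with the lower level in liver in 8 of 11 mice. The call was lost without mouse 586 (adjusted p = 0.057) and without mouse 624 (0.063). Rnasek was 1.16-fold higher in liver (log2 difference 0.22, SE 0.04, adjusted p = 6.5e-05), in 9 of 11 mice. Rnasek overlaps 0610010K14Rik and a readthrough transcript on the same strand, so that reads of these genes may be shared between them.

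In KO livers hardly any Slc16a13 RNA was left. The lowest, median and highest counts were 99, 149 and 302 reads in WT livers and 0, 3 and 8 reads in KO livers, with 2 KO livers at 0. In CPM the WT libraries held 3.72, 5.93 and 9.08 and the KO libraries 0, 0.143 and 0.297. Every KO liver lay below every WT liver, and the KO mean was 2.18 percent of the WT mean. The log2 difference was -5.45 (SE 0.30, 95% interval -6.06 to -4.83), and -5.86 (SE 0.34) without the 5 KO livers of low slope. This contrast was among those that chose the list, and it serves as the check of the liver labels.

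In the muscle libraries labelled KO the Slc16a13 count went the other way. WT muscles held 4, 12 and 22 reads (lowest, median and highest) and muscles labelled KO 11, 18 and 40 reads. In CPM these were 0.181, 0.434 and 0.868 against 0.449, 0.696 and 1.08, and 3 of the 11 libraries labelled KO lay above the highest WT library while none lay below the lowest. The log2 difference was 0.64 (SE 0.22, interval 0.19 to 1.08), a fold of 1.55. The count was therefore not lower in the muscles labelled KO, and it can neither bear out nor oppose the label. It is no check of the label, since exon 4 is outside the deletion and the counts are per gene. Asgr1, a gene of hepatocytes, had 6 reads in all 11 muscles labelled KO together and between 11912 and 23932 reads in each KO liver.

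The RPKM table gave another picture of the same muscle libraries. Mean Slc16a13 RPKM was 0.261 ± 0.106 in WT muscle and 0.290 ± 0.104 in muscle labelled KO (SD, n = 11), so that the log2(RPKM + 0.1) difference was 0.13. The gene length implied by the count and the RPKM of a library was not the same in each library. It was within 5 percent of the 2531 bases of the transcript with exon 4 in 11 of 11 muscles labelled KO and in 9 of 9 KO livers with reads. In WT libraries it was within that tolerance in 8 of 11 livers and in 5 of 11 muscles, where it ranged from 950 to 2532 bases. These lengths are a description of how the RPKM values were made, and no read positions were analysed here.

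Slc16a11, the other transporter of the pair, had more RNA in muscles labelled KO than in WT muscles. WT muscles held 0, 5 and 13 reads and muscles labelled KO 7, 23 and 53 reads (lowest, median and highest), which corresponds to 0, 0.208 and 0.456 CPM against 0.262, 0.743 and 1.39 CPM. In 10 of the 11 muscles labelled KO the level was above the highest WT muscle, and in 1 it lay within the WT range. The log2 difference was 2.03 (SE 0.31, interval 1.38 to 2.67), a fold of 4.08, on a level far below that of liver. The 10 hepatocyte markers summed to 0.362 to 6.63 CPM (median 0.782) in WT muscles and to 0.599 to 9.65 CPM (median 2.28) in those labelled KO. The 1 of the 10 that passed the filter in muscle, Alb, differed by 1.21 on the log2 scale with an unadjusted p under 0.05, and 0 passed after adjustment in edgeR. The part of these markers in the Slc16a11 value was not tested. In liver, Slc16a11 CPM was 8.31, 10.4 and 12.6 in WT and 9.41, 13.5 and 25.5 in KO mice, and 6 of 11 KO livers lay above the highest WT liver. The log2 difference was 0.49 (SE 0.13, interval 0.22 to 0.76), and it fell to 0.28 (SE 0.11, interval 0.06 to 0.50) with the 6 KO livers whose slope was not low. Of these 6, 2 lay above the highest WT liver, against 4 of the 5 with a low slope.

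Bcl6b, the gene next to the deleted promoter, was the one of the 8 other members whose level was lower in KO livers than in WT livers when all 11 KO livers were used, among the 6 of them that passed the filter in liver. CPM was 1.99, 3.45 and 5.16 in WT and 1.33, 1.98 and 3.93 in KO livers, and 6 of 11 KO livers had less than any WT liver. These were 3 of the 5 livers of low slope and 3 of the other 6. The log2 difference was -0.62 (SE 0.18, interval -0.998 to -0.233), and -0.47 (SE 0.23, interval -0.96 to 0.01) without the 5 livers of low slope. Bcl6b is the longest member, with a median implied length of 3366 bases, and a low slope means fewer reads on long genes. The part of gene length in this value was not tested. In muscle, CPM was 2.86, 4.36 and 8.80 in WT libraries and 2.49, 4.34 and 6.42 in libraries labelled KO, a log2 difference of -0.18 (SE 0.21, interval -0.60 to 0.24) with overlapping groups. The 8 endothelial markers summed to 220 to 261 CPM in WT and 192 to 263 CPM in KO livers, none of the 8 passed the test between genotypes in liver, and their median log2 difference was -0.04. At an unadjusted p under 0.05 there were also 0 of 8.

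**Figure D2:**
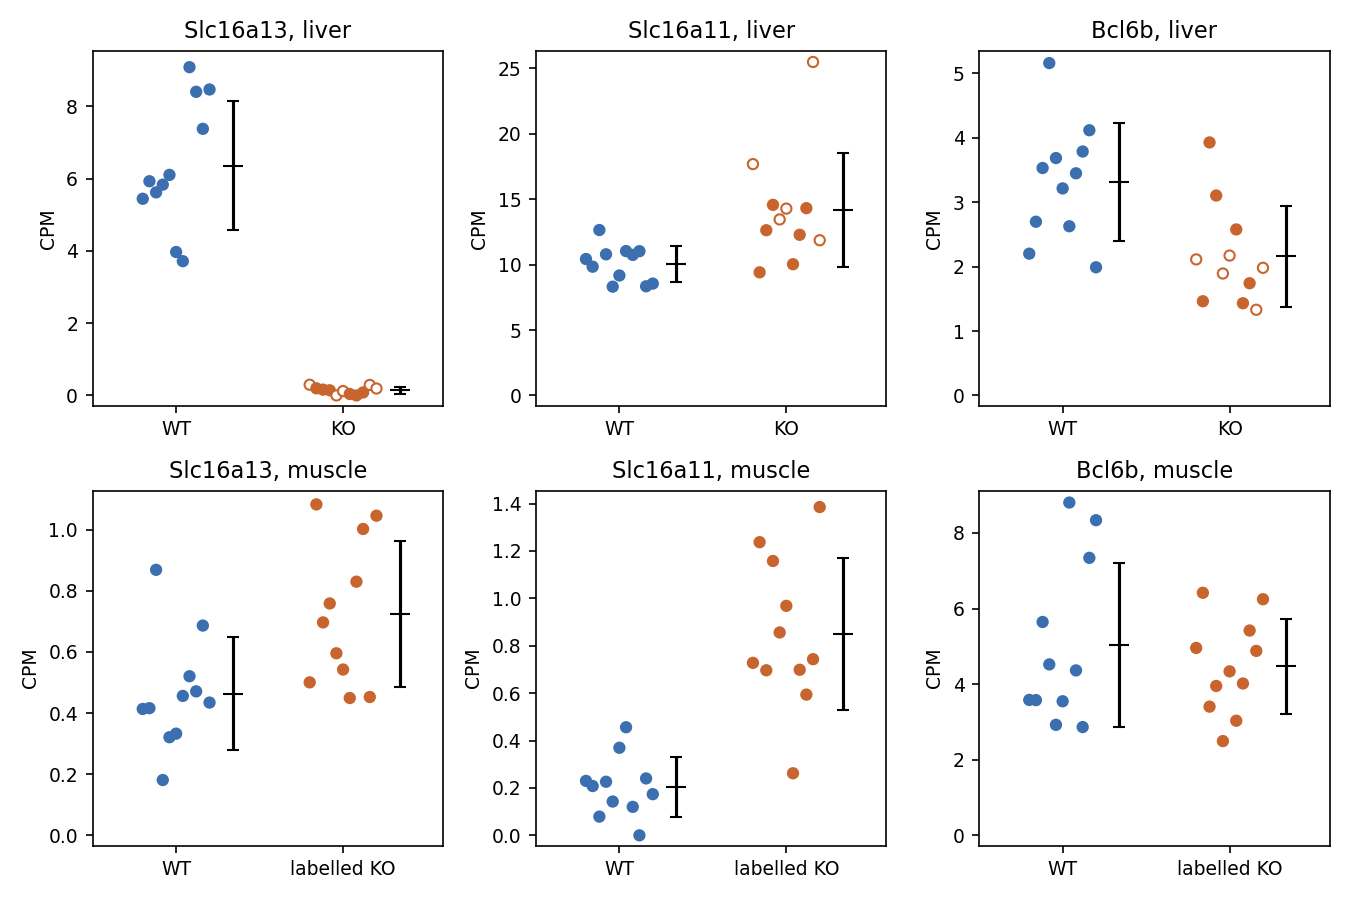
CPM of Slc16a13, Slc16a11 and Bcl6b in each library of liver (top) and muscle (bottom), with the mean and SD of 11 libraries beside the points; hollow points are the 5 KO livers of low length slope. Slc16a13 is near 0 in KO liver, Slc16a11 is higher in 10 of 11 muscles labelled KO than in any WT muscle, and Bcl6b is lower in KO liver with overlapping groups.

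The remaining members showed smaller differences between the genotypes. In liver, Rnasek differed by 0.30 (SE 0.13), Asgr2 by 0.22 (SE 0.10), Asgr1 by 0.18 (SE 0.08) and Clec10a by 0.34 (SE 0.28) on the log2 scale, each as KO minus WT. With the 6 KO livers whose slope was not low these values were -0.02, 0.03, -0.01 and 0.06. Asgr1 CPM was 533, 582 and 633 in WT livers and 552, 588 and 924 in KO livers, and all 3 KO livers above the highest WT liver were among the 5 of low slope. The hepatocyte markers summed to 83370 to 115600 CPM in WT and 94000 to 137400 CPM in KO livers, 4 of the 10 had an unadjusted p under 0.05 and 0 passed after adjustment, and their part in the Asgr1 and Asgr2 values was not tested. All 5 livers of low slope also lay above the highest WT liver for Rnasek, with 46.9 to 83.8 CPM against at most 45.7 CPM in WT. Rnasek is the shortest member, with a median implied length of 515 bases. As these livers were set apart by more reads on short genes, this count follows in part from their choice. For Clec10a the difference fell to 0.03 without mouse 532, which had the highest KO level of 1.74 CPM against a KO median of 0.448 CPM. The macrophage markers summed to 351 to 455 CPM in WT and 318 to 1170 CPM in KO livers, with 5 of 10 at an unadjusted p under 0.05 and 0 after adjustment, and the 5 Kupffer cell markers summed to 209 to 730 CPM in KO livers, with 4 of 5 at such a p and 0 after adjustment. The part of these cells in the Clec10a value was not tested. Mgl2, with 0 to 8 reads in WT and 1 to 15 reads in KO livers, and Alox12, with 4 to 24 and 3 to 23 reads, did not pass the filter on low counts in liver.

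In muscle, Clec10a differed by 0.35 (SE 0.23), Mgl2 by 0.28 (SE 0.19), Alox12 by 0.06 (SE 0.30) and Rnasek by -0.05 (SE 0.04), and all 4 intervals held 0. Clec10a CPM was 2.13, 4.71 and 6.84 in WT muscles and 1.86, 6.24 and 9.38 in muscles labelled KO, with 4 libraries labelled KO above and 1 below the WT range. Mgl2 CPM was 1.76, 3.44 and 4.43 against 1.90, 3.59 and 6.92. Asgr1 (0 to 2 reads in WT and 0 to 3 in muscles labelled KO) and Asgr2 (0 to 4 and 1 to 7 reads) did not pass the filter in muscle. The macrophage markers summed to 57.8 to 163 CPM in WT muscles and 73.0 to 234 CPM in those labelled KO, and 0 of the 9 that were tested passed, also at an unadjusted p under 0.05. The platelet markers summed to 5.43 to 9.62 CPM in muscles labelled KO, and 0 of the 3 tested passed or had such a p.

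Among the 7 members that passed the filter in liver, 1 was called between genotypes (Slc16a13), beside 0.0231 percent of all 13005 genes tested, and 1 had groups that did not overlap in CPM (Slc16a13), beside 0.00769 percent. Among the 7 that passed in muscle, 1 was called (Slc16a11), beside 0.00754 percent of 13266 genes, and 0 had groups that did not overlap, beside 0 percent. Slc16a13 passed the filter in liver through the WT livers, as no KO liver held more than 8 reads. Slc16a11 passed it in muscle mainly through the libraries labelled KO, with a median of 23 reads against 5 in WT muscles. As these contrasts also chose the list, nothing is read from the counts. The median log2 difference of the 7 members was 0.22 in liver and 0.28 in muscle, and that of all genes tested was -0.01 in liver and 0.01 in muscle.

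**Figure D3:**
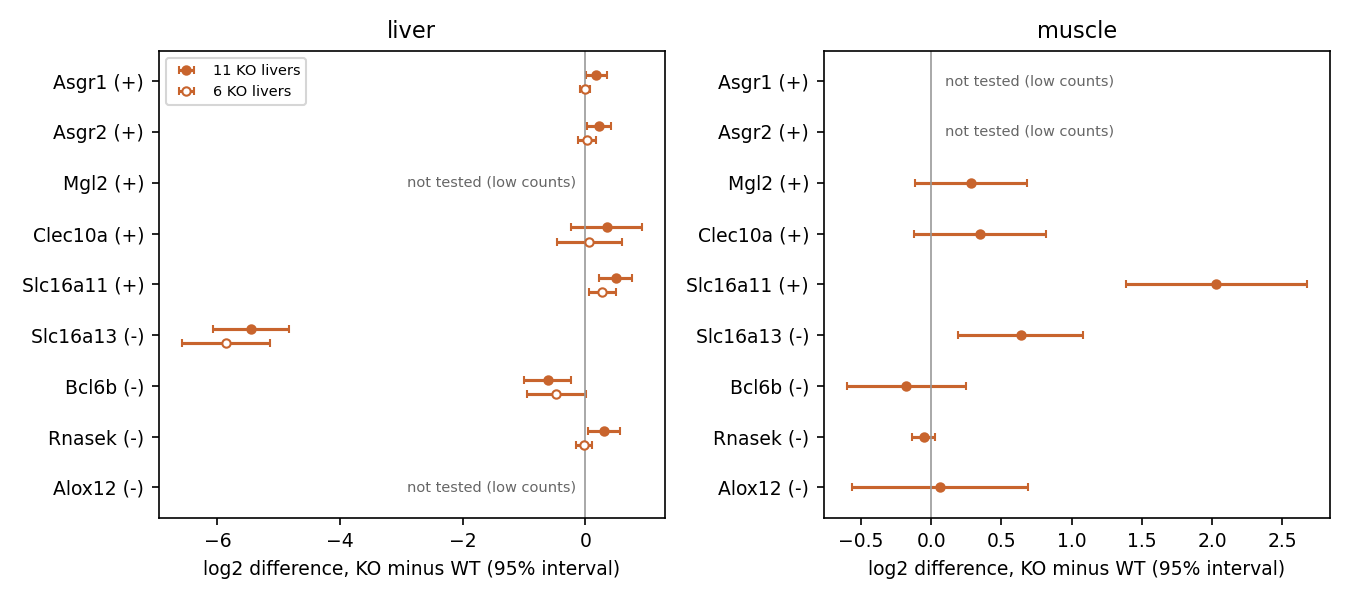
Log2 difference of KO minus WT with its 95% interval for the 9 members in chromosomal order (strand in brackets), in liver with 11 KO livers (filled) and with the 6 KO livers without a low length slope (hollow), and in muscle. Slc16a13 stands at -5.45 in liver, Slc16a11 at 2.03 in muscle, and the intervals of Asgr1, Asgr2, Bcl6b and Rnasek include 0 once the 5 livers are left out. Asgr1, Asgr2 and Rnasek then stand at -0.01, 0.03 and -0.02, and Bcl6b at -0.47 with a wider interval (-0.96 to 0.01).

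The effect of genotype was then compared between the tissues in a fit over all 44 libraries. The KO minus WT difference in liver less that in muscle was -6.08 for Slc16a13 (SE 0.38), -1.53 for Slc16a11 (SE 0.32) and -0.43 for Bcl6b (SE 0.28), on the log2 scale. Of 14739 genes in this fit, 0.00678 percent were called, and Slc16a11 was not among them. For Slc16a11 the separate fits gave positive differences in both tissues, 0.49 in liver and 2.03 in muscle. The one in muscle was the larger on the log2 scale, over a low WT level. Mean CPM was 10.1 in WT and 14.2 in KO livers, and 0.204 in WT muscles and 0.848 in those labelled KO.

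The question whether the deletion reached further along the chromosome was addressed with the 25 nearest protein-coding genes on each side of Slc16a13. These were taken by their place and not by a value. Of the 42 that are no members, 41 were in the tables. In liver 30 passed the filter, and 0 were called by edgeR's quasi-likelihood test after adjustment, beside 0.0231 percent of all 13005 genes tested. With so few calls among all genes, 0 of 30 does not answer whether the deletion reached further. Of the 30, 14 had an unadjusted p under 0.05, all 14 with more RNA in KO livers. Of all genes tested in liver, 12.9 percent had such a p. The median length was 974 bases for these 14 genes, 1646 bases for the 30 and 2411 bases for all genes tested. Without the 5 KO livers of low slope, 1 of the 30 had an unadjusted p under 0.05, beside 3.24 percent of all genes, and the median log2 difference of the 30 went from 0.17 to 0.01.

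The neighbourhood genes with the largest differences in liver were Tmem256 (0.48, SE 0.18), Vmo1 (0.47, SE 0.22) and 0610010K14Rik (0.46, SE 0.16), each with an adjusted p = 0.382 from edgeR. With the 6 remaining KO livers they stood at -0.01, -0.06 and 0.07. 0610010K14Rik lies between Bcl6b and Rnasek and held 9.22 ± 0.964 CPM in WT and 12.7 ± 5.06 CPM in KO livers (SD, n = 11). In muscle 31 neighbourhood genes passed the filter, and 0 were called by edgeR, beside 0.00754 percent of all genes. At an unadjusted p under 0.05 there were also 0, beside 8.64 percent of all genes. The largest differences in muscle were those of Zmynd15 (0.79, SE 0.45, adjusted p = 0.639 from edgeR), Ybx2 (0.31, SE 0.30) and 4930544D05Rik (0.20, SE 0.24). Zmynd15 held 0.456 ± 0.170 CPM in WT muscles and 0.763 ± 1.07 CPM in those labelled KO. Between the tissues 0 of 34 neighbourhood genes differed in their genotype effect after adjustment in edgeR, beside 0.00678 percent of all genes. At an unadjusted p under 0.05 there were 13, beside 16.2 percent of all genes. Without the 5 livers 0 of 35 were called, beside 2 of all 15085 genes.

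**Figure D4:**
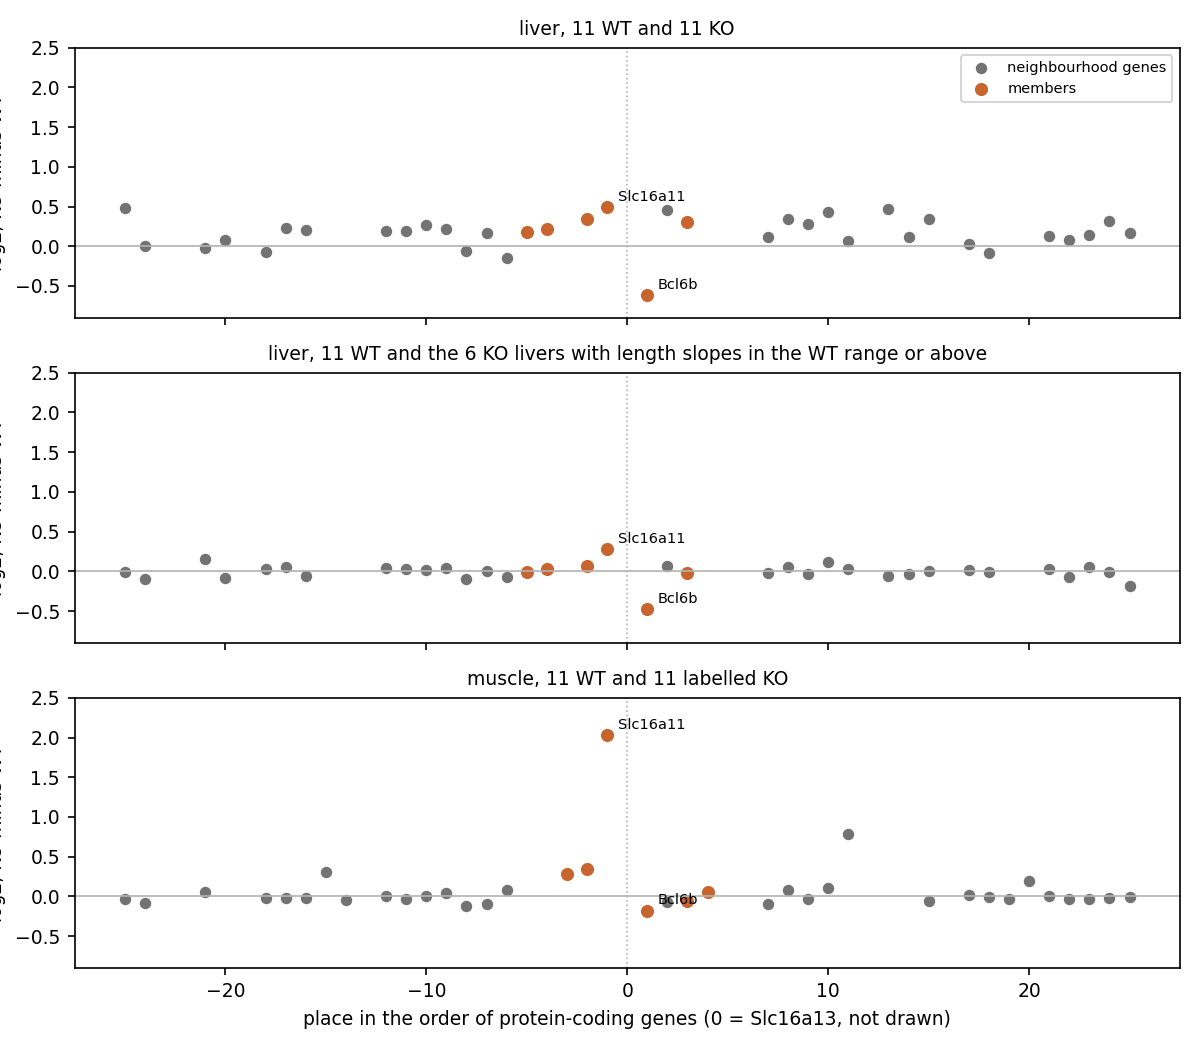
Log2 difference of KO minus WT against place in the order of protein-coding genes, with Slc16a13 at 0 and not drawn, for liver with 11 and with 6 KO livers and for muscle. Members are coloured and neighbourhood genes grey. The grey points lie mostly above 0 in the first panel and around 0 in the others, and Slc16a11 in muscle stands at 2.03.

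The members' own family was set beside the pair. Of 14 genes fixed in a list of the other monocarboxylate transporters and their partner proteins basigin (Bsg) and embigin (Emb), 11 passed the filter in liver and 11 in muscle. By edgeR 0 were called in either tissue, beside 0.0231 percent of all genes in liver and 0.00754 percent in muscle. At an unadjusted p under 0.05 there were 1 in liver (Bsg) and 0 in muscle, beside 12.9 and 8.64 percent of all genes. Genes of the list with a high RPKM in WT liver included Bsg (256 ± 24.2), Slc16a7 (37.2 ± 6.47), a carrier of pyruvate and lactate, and Slc16a10 (20.5 ± 2.55), a carrier of aromatic amino acids. Their log2 differences of KO minus WT in liver were 0.23 (SE 0.09), -0.23 (SE 0.12) and -0.06 (SE 0.11), with adjusted p = 0.382, 0.384 and 0.752 from edgeR. These 3 were named for their high level, so that their place above Slc16a11 and Slc16a13 in RPKM followed from the choice. Among the rest of the list, some genes had a higher and some a lower mean RPKM in WT liver than both of the pair.

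How the members varied among animals of 1 group was examined with 32 relations, within tissue and genotype, of log2 CPM of a member with that of another member, with the mean of a marker list, or with the slope on gene length. Pearson's r and Spearman's rho were tested by two-sided permutation with 100000 resamples and adjusted over the 32, and 9 relations passed in both. The clearest was that of Clec10a with the macrophage mean in muscles labelled KO, where r was 0.953 and rho 0.973 (n = 11, permutation p = 1e-05 for both, the smallest these resamples can give, adjusted p = 3.2e-04), and r was 0.936 without the 2 libraries farthest from the median. In WT muscles r was 0.873 (permutation, adjusted p = 0.003) but rho was 0.636 (adjusted p = 0.106). In WT livers, with 6 to 18 Clec10a reads, r was -0.555 and rho -0.473 (permutation, adjusted p = 0.125 and 0.229). Over the 6 KO livers whose slope was not low, r was -0.498 and rho -0.6 (permutation, adjusted p = 0.415 and 0.310). The relation thus did not pass in liver, where its sign was the opposite in these 2 groups. Mgl2 followed the macrophage mean in muscles labelled KO with r = 0.914 and rho = 0.836 (permutation, adjusted p = 0.002 and 0.013) and 0.855 without the 2 farthest. In WT muscles its r was 0.876 and its rho 0.682 (permutation, adjusted p = 0.003 and 0.080). Clec10a and Mgl2 were related to each other in muscles labelled KO (r = 0.862, rho = 0.873, permutation, adjusted p = 0.003 and 0.008). Without the 2 farthest libraries r was 0.756 and did not pass (permutation, adjusted p = 0.079).

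Asgr2 followed the hepatocyte mean in WT livers (r = 0.807, rho = 0.791, n = 11, permutation, adjusted p = 0.016 and 0.020), with r = 0.766 and an adjusted p = 0.079 without the 2 farthest libraries. Bcl6b followed the endothelial mean in muscles labelled KO (r = 0.759, rho = 0.809, permutation, adjusted p = 0.020 and 0.015), and r was 0.562 without the 2 farthest (adjusted p = 0.209). In WT livers the value for Bcl6b was -0.367 and did not pass (permutation, adjusted p = 0.340). As KO livers fall apart by their length slope, relations among them are given within the 6 libraries of like slope, although 4 of the 9 relations that passed were computed over all 11. Over these 6, r was 0.958 for Asgr2 with the hepatocyte mean, 0.697 for Asgr1 with that mean, 0.512 for Asgr1 with Asgr2 and -0.868 for Rnasek with the slope, and of these 4 the first alone passed in both measures (permutation, adjusted p = 0.015 and 0.022). The relation of Slc16a13 with Slc16a11 did not pass in any group. Its r was -0.161 in WT livers, -0.294 in WT muscles and 0.537 in muscles labelled KO (permutation, adjusted p = 0.674, 0.417 and 0.125), and -0.026 over the 6 KO livers. That of Slc16a13 with Bcl6b did not pass either, with r = 0.110, 0.362 and 0.544 in the same order (permutation, adjusted p = 0.772, 0.342 and 0.125) and 0.375 over the 6 KO livers.

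**Figure D5:**
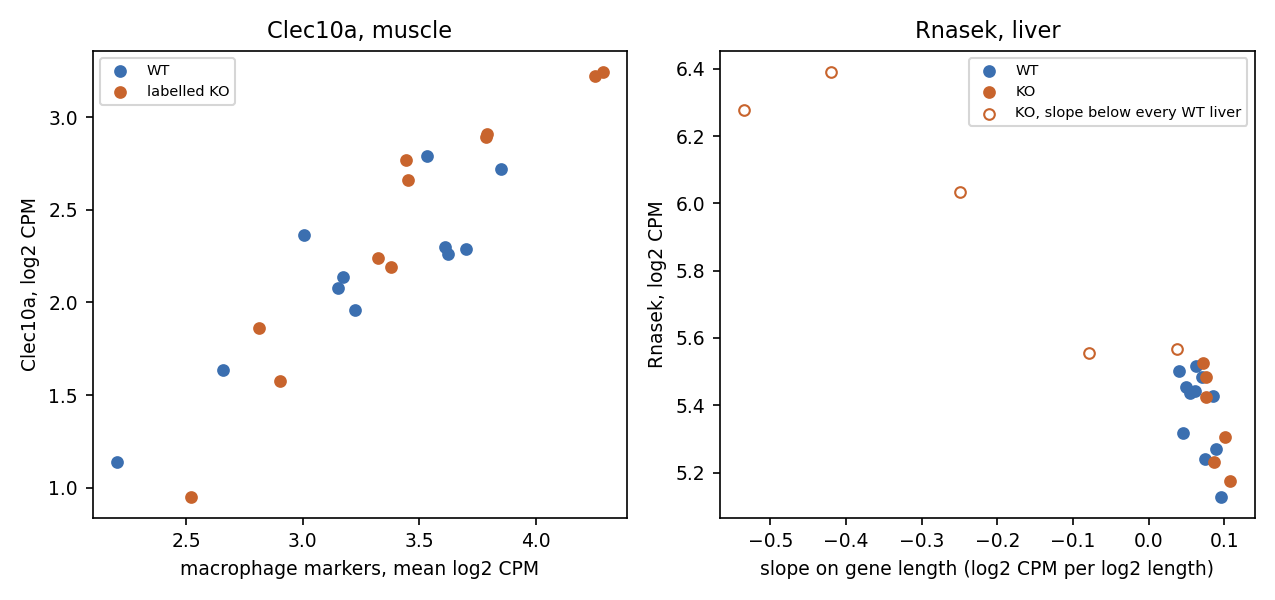
Left, Clec10a against the mean of 10 macrophage markers in muscle, both in log2 CPM; right, Rnasek in log2 CPM against the slope of a liver library on gene length. Points are libraries, with 11 per genotype, and hollow points are the 5 KO livers of low slope, which hold the highest Rnasek levels. Rnasek is the shortest member (515 bases), so that a high level at a low slope follows in part from the measure.

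The genes whose levels were most like those of each member over the 11 WT animals are given as a description, from 13005 genes in liver and 13266 in muscle. In liver these were Disp2 (r = 0.863), P3h4 (0.861) and Slc37a1 (0.849) for Slc16a13 and Idnk (0.897), Fam169b (0.868) and Rhof (0.857) for Slc16a11. For Bcl6b they were Sbf1 (0.918), Smim13 (0.904) and Pced1a (0.893), and for Asgr2 they were Itih1 (0.968), Rpl28 (0.963) and C1ra (0.947). Asgr1 was closest to Chpf (0.889), Nosip (0.884) and Bmyc (0.882), Clec10a to Ift57 (0.870), B4galt4 (0.796) and Miga1 (0.787), and Rnasek to Mrpl53 (0.956), Rgl2 (0.950) and Ninj1 (0.939). In muscle the list was S1pr3 (0.929), Cxcl12 (0.896) and Clip2 (0.892) for Slc16a13 and Pus10 (0.887), Txnrd3 (0.882) and Wdr55 (0.864) for Slc16a11. For Mgl2 it held C1qa (0.932), which is also one of the macrophage markers, Rnase4 (0.925) and Sema4a (0.924), and for Clec10a it held Pdk3 (0.968), Fst (0.964) and C3 (0.954). Bcl6b was closest to Gm10032 (0.896), Zfp266 (0.851) and Spata5 (0.846), Rnasek to Synpo2l (0.944), Hspb3 (0.930) and Cacng6 (0.913), and Alox12 to Arhgap45 (0.978), Selenon (0.952) and Gda (0.951). None of these genes is a member, and with 11 libraries and this many genes values of such size come from the far end of a long list.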

How the data were processed

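Liver and skeletal muscle RNA of 11 WT and 11 KO mice was sequenced as stranded single-end reads of 85 bp. The labels gave the genotype, the tissue and the number of each animal. The authors deposited raw read counts per gene and a table of RPKM values they had calculated, over 38202 genes. The aligner, the counting program and the genome build are not given in the sources used here, so gene order, strand and exon lengths came from RefSeq and GENCODE (GRCm38). Gene symbols were matched for 36340 identifiers.

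The counts were fitted with edgeR 4.0.16 under R 4.3.3, after TMM scaling and the filterByExpr filter. P-values of the quasi-likelihood test were adjusted after Benjamini and Hochberg over all genes tested, with a threshold of 0.05. Liver and muscle were fitted separately, WT liver was compared with WT muscle, and an interaction of genotype and tissue was fitted over 44 libraries. Relations used log2 CPM with a prior count of 2 and permutation tests in scipy 1.17.1. Alternatives were DESeq2 1.42.0, limma-voom and limma on log2(RPKM + 0.1) and log2(RPKM + 1) with limma 3.58.1, library size scaling, no filter, at least 10 counts in every library, the mouse as a block, each mouse left out, and the 5 KO livers of low length slope left out. The members and lists were chosen with earlier results of these data known. The genes named are the members, the 3 nearest protein-coding genes on each side, the 3 neighbourhood genes with the largest difference in each tissue, the 3 genes most like a member and up to 4 family genes by their level in WT liver, of which 1 is not reported here.

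The pairing of tissues comes from the animal number, which marks the same mouse. Deviations from the group means were correlated at 0.10 on average within a mouse and at -0.01 between mice, and 12 of 22 pairs exceeded 0.1. Within a group 0 pairs of libraries were identical, and the lowest chi-square per gene was 4.47. Replicates are separate animals. The fit was tested on simulated counts. A floor of 3 counts was used, except for the ratio of Asgr1 between tissues, which rests on a muscle sum of 2 reads. No fold was computed against a group at 0. A depth of 20150712 to 35218243 reads per library leaves members with under 10 reads per library imprecise.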

Additional observations from a re-analysis of the deposited data

Results flagged for a closer look

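The KO minus WT difference of Slc16a13 was -5.45 in liver and 0.64 in muscle libraries labelled KO, and the interaction of genotype and tissue was -6.08 on the log2 scale (SE 0.38). Slc16a13 was the 1 gene called in that fit, and since its contrast chose the list no p is given. All 11 KO livers lay below the WT range, and 3 of 11 muscles labelled KO lay above it. As the muscle count is no check of the label, its difference is not called an effect of the deletion. The part of exon 4, which lies outside the deletion, in the muscle count was not tested. Single samples far from their group were not searched for, as all groups have 11 libraries.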

How the results depend on the processing

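For Slc16a13 in liver the log2 difference was -4.18 with log2(RPKM + 0.1) and -1.78 with log2(RPKM + 1), where a pseudocount flattens low levels, and in muscle it was 0.13 and 0.033. Slc16a11 in muscle stood at 0.51 with log2(RPKM + 1), Clec10a in liver at -0.25 with log2(RPKM + 0.1), and Rnasek in liver at -0.025 without the 5 KO livers of low slope. The other KO minus WT differences of members moved by less than 1 SD of the replicates. Between WT liver and WT muscle all 9 kept their direction, but with log2(RPKM + 1) the size was 8.98 for Asgr1, 7.28 for Asgr2, 2.93 for Slc16a11, 1.53 for Slc16a13, -1.52 for Clec10a, -1.49 for Mgl2 and -0.28 for Alox12. Genes called over the whole table went from 3 in liver to 6 with DESeq2 and to 1 with at least 10 counts or without the 5 livers. In muscle the 1 call, Slc16a11, went to 0 with no filter, at least 10 counts, limma-voom and both RPKM scales. In the interaction 1 call became 43 with DESeq2, 3 with library size scaling, 2 with both RPKM scales or without the 5 livers, and 0 with at least 10 counts. Neighbourhood genes called by adjusted p stayed at 0 in liver and muscle under every alternative run, with at most 6 genes of the whole table called in either tissue. The cause of these changes was not tested, except that at least 10 counts removes Slc16a13 from every fit and Slc16a11 from the muscle and interaction fits.

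Leaving out each mouse in turn gave -0.65 to -0.40 for Bcl6b between WT liver and WT muscle, with the call lost without mouse 586 and without mouse 624, and 12567 to 12690 genes called in that comparison. With the mouse as a block for the pairing of tissues, Bcl6b stood at -0.49 (adjusted p = 0.034, edgeR), and the block lost no call of a member. Of the 9 relations that passed, 3 did so without the 2 farthest libraries. Members with few reads, Asgr1 and Asgr2 in muscle and Mgl2 and Alox12 in liver, could not be compared between genotypes at this depth.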
